A study of Homo sapiens with 4 samples.

Results

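The 43 collagen genes measured on these arrays were compared between embryoid bodies given TBBD and embryoid bodies given the vehicle DMSO, and between the replicate numbers of the arrays. Members were all genes for which the platform annotation gave a probeset the single symbol COL, a number, the letter A and a number. They were 43 of 18640 genes, measured on 1825 of 218927 probesets, and the gene that the annotation calls COL29A1 appears here under its current symbol, COL6A5. By structure, 11 were fibrillar, 6 belonged to the basement membrane collagen type IV, 10 were fibril-associated and 16 were of other kinds. Embryoid bodies are aggregates in which embryonic stem cells begin to differentiate. All samples came from BG01V, an established human line whose embryonic stem cells carry an abnormal karyotype, so a single line stands behind every value. The tested embryoid bodies received 10 µM TBBD, named in the series title as blocking the methyl mark on histone H3 arginine 17, and the controls received DMSO. Treatment lasted 48 h and was generally given between day 2 and day 4 of embryoid body formation. Each group held 2 arrays, replicate 1 and replicate 2, and the labels do not say what a shared replicate number marks or whether replicates were separate cultures. The p-values therefore measure only the spread between these samples, which may be technical.

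Collagens are the main structural proteins of the extracellular matrix, built from chains of glycine-rich repeats that wind into triple helices. Fibrillar collagens assemble into the fibres of connective tissue, type IV forms the sheet-like network of basement membranes, and fibril-associated collagens sit on the surface of fibres. In an early embryo, type IV collagen and laminin underlie the first epithelia, and fibrillar collagens come to mark mesenchyme and the tissues derived from it.

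The 4 arrays had nearly equal overall signal, with probeset medians of 6.39 to 6.42 on the log2 scale. Values below are log2 signals averaged over the probesets of a gene, so 1 unit is a doubling, and levels of different genes are not ranked, since probesets differ in response. No detection call was used, but 348 olfactory receptor genes, which embryonic cells are not expected to express, had a median level of 5.40 and a 95th percentile of 5.66. Of the 43 collagens, 34 had a mean level above that percentile and 9 did not: COL24A1, COL4A3, COL4A4, COL19A1, COL9A1, COL6A5, COL10A1, COL8A1 and COL28A1. Of 9 measured pluripotency markers POU5F1 stood at 6.60 to 7.75 and LIN28A at 9.08 to 10.00 over the arrays. Others reached lower, with SOX2 at 5.74 to 7.49 and GDF3 at 5.70 to 6.33. The arrays hold RNA of whole embryoid bodies, in which fewer cells of a type and less RNA per cell cannot be told apart.

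The collagens with the largest differences between the replicate numbers were COL3A1, COL6A3, COL1A1, COL1A2 and COL15A1, all higher on replicate 2, and no collagen passed the test between TBBD and DMSO. Between the replicate numbers, 13 of the 43 collagens passed limma's test at an adjusted p under 0.05, all 13 higher on replicate 2, against 5.37% of all genes, 3.35% higher and 2.02% lower. These 13 were COL1A1, COL1A2, COL2A1, COL3A1, COL5A1, COL5A2, COL6A1, COL6A2, COL6A3, COL12A1, COL14A1, COL15A1 and COL21A1. The spread in this fit is that between the TBBD and DMSO arrays of a number, so it includes any treatment difference. With treatment as a second term the same 13 passed, and 653 of the 18640 genes. Both replicate 2 arrays lay above both replicate 1 arrays for 29 collagens and below them for 6, against 25.1% and 25.9% of all genes. The median difference, replicate 2 minus replicate 1, was 0.18 over the collagens and -0.002 over all genes. It was 0.23 between the TBBD arrays and 0.18 between the DMSO arrays, and 34 and 33 of the 43 collagens were higher in these pairs, where 53.1% and 45.7% of all genes were higher.

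**Figure D1:**
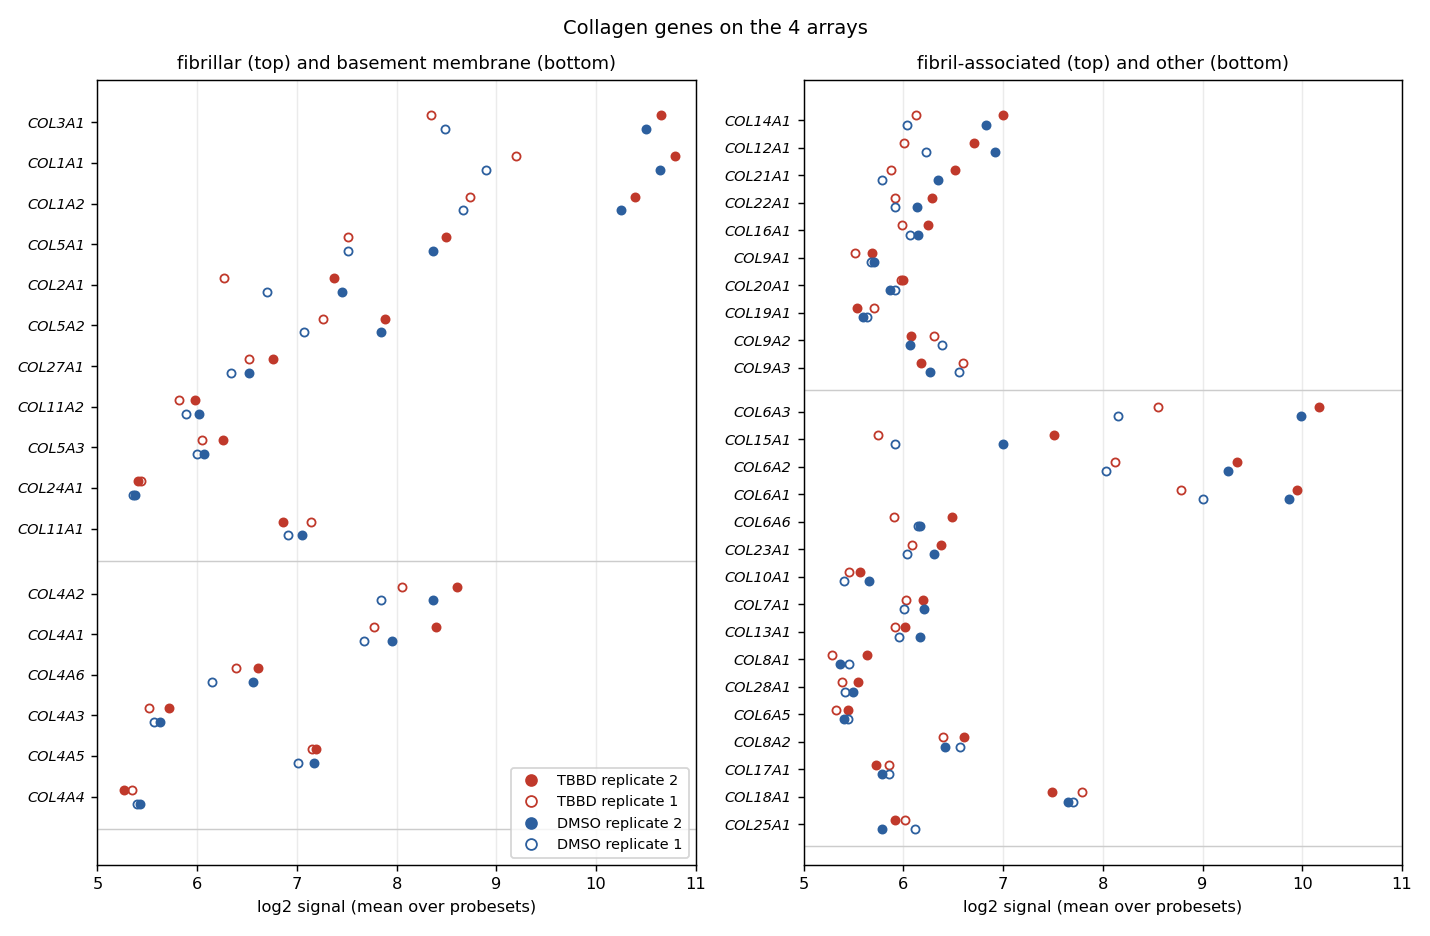
Log2 signal of each collagen gene (x axis, mean over its probesets) on the TBBD arrays (red) and DMSO arrays (blue); filled points are replicate 2 and open points replicate 1, and genes run down the page by class and by the difference between the numbers. For COL3A1, COL1A1, COL1A2 and COL6A3 both filled points lie above 9.9 and all open points below 9.3, while the red and blue points of 1 number lie close together.

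Among the fibrillar collagens 6 of 11 rose on replicate 2, 0 fell and 5 did not pass the test, with a median difference of 0.69. COL3A1, the single chain of type III collagen of loose and vascular connective tissue, had a log2 signal of 10.65 on TBBD 2 and 10.50 on DMSO 2, against 8.34 on TBBD 1 and 8.48 on DMSO 1. The replicate 2 arrays lay far above the replicate 1 arrays, with no overlap. The difference was 2.16 ± 0.11 (SE), a 4.48-fold higher signal (adjusted p = 0.000682). Type I collagen, the commonest fibrillar collagen of mesenchyme, is built from the products of COL1A1 and COL1A2. COL1A1 stood at 10.79 on TBBD 2 and 10.64 on DMSO 2, against 9.20 on TBBD 1 and 8.90 on DMSO 1. COL1A2 stood at 10.39 and 10.25 on TBBD 2 and DMSO 2, against 8.74 and 8.67 on TBBD 1 and DMSO 1. The chains of this heteromer differed by nearly the same amount, 1.66 ± 0.13 (SE) for COL1A1 (adjusted p = 0.00123) and 1.61 ± 0.10 for COL1A2 (adjusted p = 0.000761).

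Type V collagen is a minor component that nucleates type I fibrils. Its chain COL5A1 stood at 8.49 on TBBD 2 and 8.36 on DMSO 2, against 7.51 on each of TBBD 1 and DMSO 1, a difference of 0.92 ± 0.10 (SE, adjusted p = 0.0049). COL5A2, with 7.88 and 7.84 on TBBD 2 and DMSO 2 against 7.26 and 7.07 on TBBD 1 and DMSO 1, differed by 0.69 ± 0.11 (adjusted p = 0.0159). The chain COL5A3 did not pass, at 0.14 ± 0.11 (adjusted p = 0.542). The call of COL5A2 was lost without DMSO replicate 1 (0.60, adjusted p = 0.0643) and without TBBD replicate 2 (0.67, adjusted p = 0.0697).

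The fibrillar collagens of cartilage did not move together. COL2A1, the chain of type II collagen, which the notochord and early neuroepithelium also make, stood at 7.37 on TBBD 2 and 7.45 on DMSO 2, against 6.27 on TBBD 1 and 6.70 on DMSO 1. It rose by 0.92 ± 0.15 (SE, adjusted p = 0.0177). COL11A1, whose product copolymerises with type II collagen, stood at 6.86 on TBBD 2 and 7.05 on DMSO 2, against 7.14 on TBBD 1 and 6.91 on DMSO 1, and the numbers overlapped. The fit gave it -0.07 ± 0.12, from -0.36 to 0.22 at 95% confidence. COL11A2 at 0.15 ± 0.10 and the minor fibrillar genes COL27A1 at 0.21 ± 0.12 and COL24A1 at -0.0019 ± 0.10 did not pass. Of 10 cartilage markers only SOX5 at 0.52 (adjusted p = 0.0321) and SOX6 at 1.71 (adjusted p = 0.000682) passed, both higher. That is 20.0% called, against 5.37% of all genes. The list as a whole leaned lower, with 7 markers lower on replicate 2, 3 higher and a median difference of -0.15. Without overlap 5 lay below and 3 above. SOX9, the factor that drives COL2A1 in chondrocytes, stood at -0.29 (adjusted p = 0.221) and ACAN, which encodes the cartilage proteoglycan aggrecan, at -0.14 (adjusted p = 0.496).

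**Figure D2:**
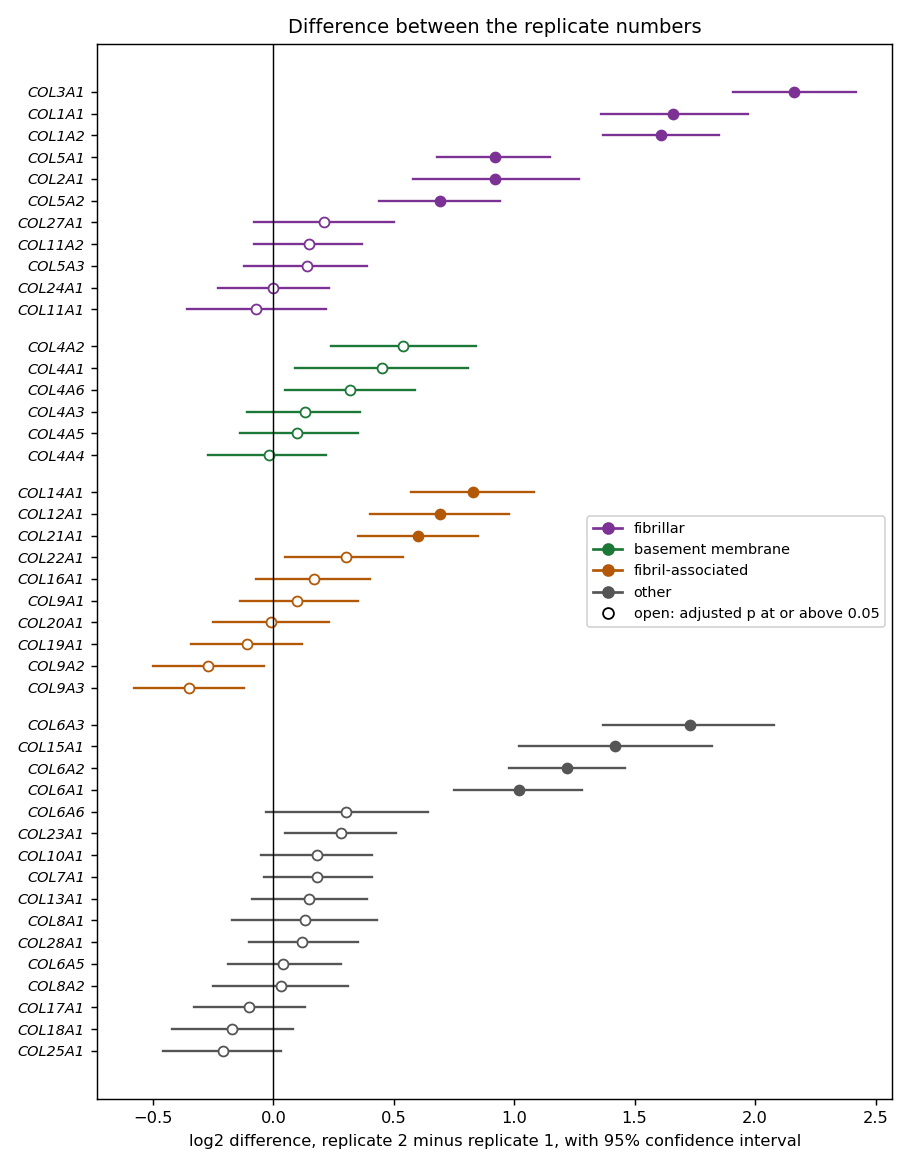
Log2 difference, replicate 2 minus replicate 1 (x axis), with its 95% confidence interval from limma for each of the 43 collagen genes, 2 arrays a number, coloured by class; filled points had an adjusted p under 0.05. The 13 filled points all lie to the right of 0, from COL21A1 at 0.60 to COL3A1 at 2.16, and none of the 6 basement membrane collagens is filled.

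Type VI collagen, which forms beaded filaments around cells, is assembled from the products of COL6A1, COL6A2 and 1 further chain, most often that of COL6A3. These genes rose together on replicate 2. COL6A3 stood at 10.17 on TBBD 2 and 9.99 on DMSO 2, against 8.55 on TBBD 1 and 8.15 on DMSO 1. COL6A2 stood at 9.34 and 9.25 on TBBD 2 and DMSO 2, against 8.12 and 8.03 on TBBD 1 and DMSO 1. COL6A1 stood at 9.95 and 9.87 on TBBD 2 and DMSO 2, against 8.78 and 9.0 on TBBD 1 and DMSO 1. No replicate 1 value reached a replicate 2 value in any of the 3 genes. The differences were 1.73 ± 0.15 (SE, adjusted p = 0.00189) for COL6A3, 1.22 ± 0.10 (adjusted p = 0.00153) for COL6A2 and 1.02 ± 0.11 (adjusted p = 0.0049) for COL6A1. The alternative chains COL6A5 at 0.04 ± 0.10 and COL6A6 at 0.30 ± 0.14 did not pass. COL6A6 had 6.49 on TBBD 2 and 6.17 on DMSO 2, against 5.91 on TBBD 1 and 6.15 on DMSO 1, so its DMSO arrays hardly differed.

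The 250 bases before the RefSeq start of COL6A2 and of COL6A3 (GRCh38.p14) are shown because these chains of 1 protein moved together. Capitals mark exact matches on either strand to a GC box, GGGCGG, or a TATA element, TATAAA. The first lies at chr21:46097862-46098111 on the plus strand and the second at chr2:237414165-237414414 on the minus strand.
COL6A2: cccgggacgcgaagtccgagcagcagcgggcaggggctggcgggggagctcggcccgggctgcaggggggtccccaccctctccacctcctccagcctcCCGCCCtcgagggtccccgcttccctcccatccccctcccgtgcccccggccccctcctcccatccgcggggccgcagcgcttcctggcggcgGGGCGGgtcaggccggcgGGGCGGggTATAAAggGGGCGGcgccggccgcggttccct
COL6A3: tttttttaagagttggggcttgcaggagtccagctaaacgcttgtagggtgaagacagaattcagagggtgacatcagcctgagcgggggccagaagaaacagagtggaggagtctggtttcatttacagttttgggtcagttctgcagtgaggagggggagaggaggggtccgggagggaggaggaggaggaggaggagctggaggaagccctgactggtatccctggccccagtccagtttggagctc
The COL6A2 stretch holds 4 GC boxes and 1 TATA element, which begins 32 bases before the start, and the COL6A3 stretch holds neither motif. Neither stretch has the CCAAT box. Among 35116 promoter entries of the RefSeq table, 42.6% hold the GC box, 10.7% the TATA element and 32.0% the CCAAT box in the same window. The table has entries for 31 of the 43 collagens, of which 18, 5 and 9 hold these motifs, and for 6 of the 13 that passed. A match describes letters and shows no binding.

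COL15A1, a multiplexin found where basement membranes meet connective tissue, stood at 7.51 on TBBD 2 and 7.00 on DMSO 2, against 5.75 on TBBD 1 and 5.92 on DMSO 1. Its difference was 1.42 ± 0.17 (SE, adjusted p = 0.00661), and the pair of TBBD arrays lay further apart, by 1.77, than the pair of DMSO arrays, by 1.08. The other multiplexin, COL18A1, whose C-terminal fragment is endostatin, did not pass. It stood at 7.49 on TBBD 2 and 7.65 on DMSO 2, against 7.79 on TBBD 1 and 7.70 on DMSO 1, which gives -0.17 ± 0.11, from -0.42 to 0.08 at 95% confidence. These related genes therefore lay on opposite sides of 0, and the difference between them was not tested.

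Of the 10 fibril-associated collagens 3 rose on replicate 2, 0 fell and 7 did not pass. COL14A1, which coats type I fibrils in early connective tissue, stood at 7.00 on TBBD 2 and 6.83 on DMSO 2, against 6.13 on TBBD 1 and 6.04 on DMSO 1. It differed by 0.83 ± 0.11 (SE, adjusted p = 0.00871). COL12A1, a partner of type I fibrils in dense connective tissue, had 6.71 and 6.92 on TBBD 2 and DMSO 2, against 6.01 and 6.23 on TBBD 1 and DMSO 1, a difference of 0.69 ± 0.12 (adjusted p = 0.0252). COL21A1 had 6.52 and 6.35 on TBBD 2 and DMSO 2, against 5.88 and 5.79 on TBBD 1 and DMSO 1, a difference of 0.60 ± 0.11 (adjusted p = 0.0253). The calls of COL12A1 and COL21A1 depended on the arrays used and on how probesets were summarised. COL12A1 missed the threshold when DMSO replicate 2 (0.59, adjusted p = 0.0832) or TBBD replicate 1 (0.59, adjusted p = 0.0853) was left out and when probesets were summarised by their median (0.61, adjusted p = 0.0673). COL21A1 missed it when DMSO replicate 1 (0.56, adjusted p = 0.0932), TBBD replicate 1 (0.64, adjusted p = 0.0639) or TBBD replicate 2 (0.52, adjusted p = 0.142) was left out and under that median summary (0.48, adjusted p = 0.133).

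Type IX collagen decorates type II fibrils. Its chains COL9A2 and COL9A3 were lower on both replicate 2 arrays. COL9A3 stood at 6.18 on TBBD 2 and 6.27 on DMSO 2, against 6.60 on TBBD 1 and 6.56 on DMSO 1, a difference of -0.35 ± 0.10 (SE) that missed the threshold (adjusted p = 0.0962). With the median over its probesets the COL9A3 difference was -0.13 (adjusted p = 0.748). Of its 19 probesets 9 were lower on replicate 2 without overlap and 2 were higher. COL9A2 stood at -0.27 ± 0.10 (adjusted p = 0.178) and COL9A1 at 0.10 ± 0.10 (adjusted p = 0.661). COL22A1, with 6.29 and 6.14 on TBBD 2 and DMSO 2 against 5.92 on each of TBBD 1 and DMSO 1, differed by 0.30 ± 0.10 (adjusted p = 0.160). COL16A1 at 0.17, COL19A1 at -0.11 and COL20A1 at -0.0088 did not pass.

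None of the 6 type IV genes passed between the replicate numbers by limma, where 3 had an unadjusted p under 0.05, all higher on replicate 2, against 21.0% of all genes in either direction. COL4A1 and COL4A2 encode the chains of the type IV heterotrimer found in nearly every basement membrane. COL4A2 stood at 8.61 on TBBD 2 and 8.36 on DMSO 2, against 8.05 on TBBD 1 and 7.84 on DMSO 1. Its difference of 0.54 ± 0.13 (SE) came nearest to the threshold (adjusted p = 0.0573). The gene passed with quantile normalization again (adjusted p = 0.0482), after genes on fewer than 3 probesets were dropped (adjusted p = 0.0404) and among the brightest 12426 genes (adjusted p = 0.0385) or 9320 genes (adjusted p = 0.0398). It did not pass with the median over its probesets (adjusted p = 0.156), and its adjusted p was 0.0553 to 0.279 with 1 array left out, with differences of 0.42 to 0.67. COL4A1 stood at 8.39 on TBBD 2 and 7.95 on DMSO 2, against 7.77 on TBBD 1 and 7.67 on DMSO 1. It differed by 0.45 ± 0.15 (adjusted p = 0.150), and by 0.67 without DMSO replicate 2 (adjusted p = 0.0425) but 0.23 without TBBD replicate 2 (adjusted p = 0.587). COL4A6 at 0.32 ± 0.11, COL4A5 at 0.10 ± 0.10, COL4A3 at 0.13 ± 0.10 and COL4A4 at -0.02 ± 0.11 did not pass.

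COL4A1 and COL4A2 are transcribed in opposite directions from starts separated by 126 bases, which is why the stretch between them is shown. It lies at chr13:110307158-110307283 (GRCh38.p14, RefSeq), printed on the plus strand, which COL4A2 follows. Capitals mark a CCAAT box, CCAAT, and a GC box, GGGCGG, on either strand.
COL4A1/COL4A2: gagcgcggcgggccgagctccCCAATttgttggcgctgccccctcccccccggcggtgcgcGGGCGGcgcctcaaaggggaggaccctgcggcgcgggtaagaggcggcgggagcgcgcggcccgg
The stretch holds 1 copy of each and no TATAAA. In the 126 bases before their starts, 21.1% of the 35116 RefSeq entries hold the CCAAT box, 34.6% the GC box and 5.87% the TATA element. COL4A5 and COL4A6 are likewise divergent, with 379 bases between their starts.

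Of the 12 collagens of other kinds that did not pass, COL6A5, COL6A6 and COL18A1 are given above. COL7A1, which forms the anchoring fibrils of skin, stood at 0.18 ± 0.10 (SE) on 98 probesets. The short-chain network genes COL10A1 at 0.18, COL8A1 at 0.13 and COL8A2 at 0.03 rested on only 4, 5 and 6 probesets. Of the transmembrane collagens COL23A1 stood at 0.28 ± 0.10 (adjusted p = 0.160), COL13A1 at 0.15, COL17A1, a hemidesmosome protein of skin, at -0.10, and COL25A1, made by neurons and muscle, at -0.21 ± 0.10 (adjusted p = 0.308). COL28A1 stood at 0.12. Skin epithelium markers gave 1 call of 8, ITGB4 at 0.49 (adjusted p = 0.0415), and their median difference was 0.18. That is 12.5% called, against 5.37% of all genes.

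In several collagens with large differences between the replicate numbers, most probesets pointed the same way. Those genes were picked for their gene-level difference, which favours such counts. For COL3A1 all 51 probesets, and for COL1A2 all 52, had both replicate 2 values above both replicate 1 values. The counts were 45 of 48 for COL1A1, 40 of 42 for COL6A3, 25 of 26 for COL6A1, 23 of 27 for COL6A2, 49 of 59 for COL5A1 and 34 of 41 for COL15A1. In COL5A1 and COL6A1 1 probeset each was lower without overlap. For the other collagens that passed, the counts were 39 of 52 for COL2A1, 42 of 56 for COL5A2 and 38 of 53 for COL14A1. They were 44 of 64 for COL12A1 and 19 of 32 for COL21A1. In that order 2, 2, 3, 0 and 1 probesets were lower without overlap. In COL4A1 29 of 50 and in COL4A2 31 of 45 did so, and none in either was lower without overlap. COL11A1 was mixed, with 11 of 68 probesets higher and 17 lower, and its probeset differences ran from -1.14 to 1.69. In COL15A1 they ran from -0.30 to 3.80. Probesets of a gene share the transcript and the arrays, so these counts describe the gene and are no test.

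**Figure D3:**
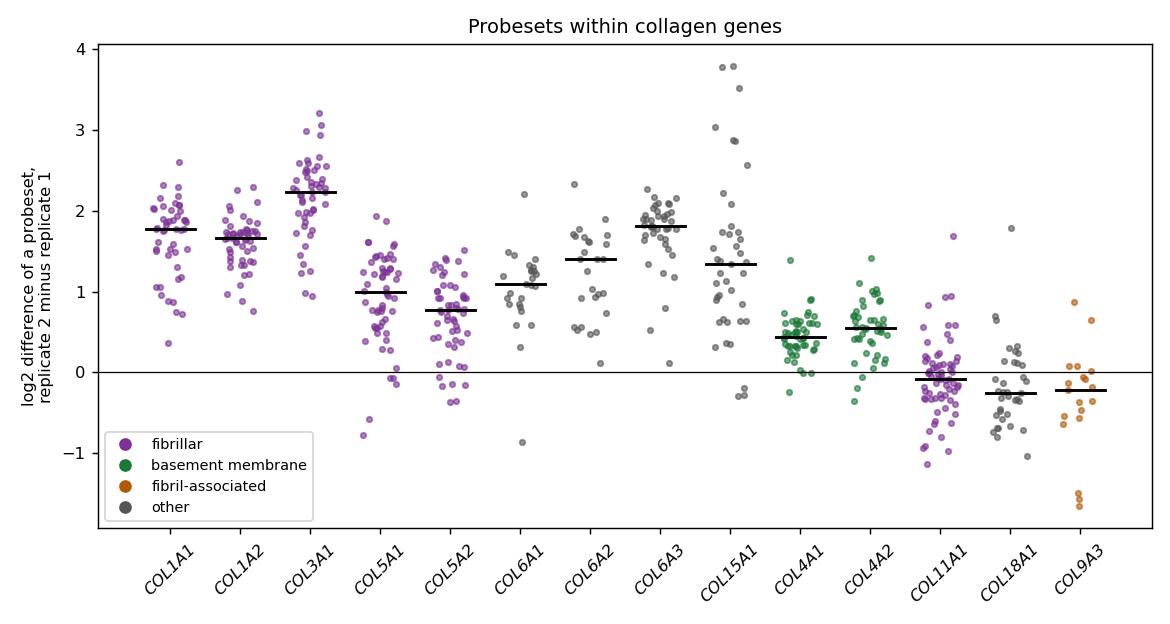
Log2 difference, replicate 2 minus replicate 1 (y axis, mean of the TBBD pair and the DMSO pair), of single probesets (points, spread sideways at random) in 14 collagen genes, with the median of each gene as a bar. All points of COL3A1 and COL1A2 lie above 0, with medians of 2.24 and 1.66, whereas points of COL11A1, COL18A1 and COL9A3 lie on both sides of 0.

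Genes that handle collagen moved unevenly between the replicate numbers. Of 20 genes of modification and folding 3 rose and 1 fell. FKBP10, a collagen chaperone with prolyl isomerase activity, stood at 0.74 (adjusted p = 0.0151), PLOD1, a lysyl hydroxylase, at 0.65 (adjusted p = 0.0132) and P3H4, a partner of the hydroxylation complex, at 0.49 (adjusted p = 0.0375). P3H2, a prolyl 3-hydroxylase that acts on type IV collagen, fell by 0.91 (adjusted p = 0.0187). SERPINH1, the collagen-specific chaperone HSP47, had 9.62 on TBBD 2 and 9.40 on DMSO 2, against 9.47 on TBBD 1 and 9.62 on DMSO 1, and its difference of -0.04 did not pass. The subunit genes of prolyl 4-hydroxylase, P4HA1 at 0.28, P4HA2 at 0.45 and P4HB at 0.18, did not pass either.

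Of 14 export and propeptide genes 3 rose and 0 fell. PCOLCE, whose product speeds removal of the C-propeptide of fibrillar procollagens, stood at 9.38 on TBBD 2 and 8.90 on DMSO 2, against 7.29 on TBBD 1 and 7.48 on DMSO 1, a difference of 1.75 ± 0.17 (SE, adjusted p = 0.00265). ADAMTS2, the N-propeptidase, stood at 0.67 (adjusted p = 0.0157) and BMP1, the C-propeptidase, at 0.66 (adjusted p = 0.0289). Of 5 lysyl oxidases LOXL1 at 0.93 (adjusted p = 0.00943) and LOXL4 at 0.56 (adjusted p = 0.0270) rose. Of 11 receptors 2 rose: DDR2, a receptor kinase for fibrillar collagen, at 1.43 (adjusted p = 0.00267) and MRC2, an endocytic collagen receptor, at 0.77 (adjusted p = 0.0202). The receptor kinase gene DDR1, typical of epithelia, stood at 0.02. Of 13 degradation genes MMP9, a gelatinase, at 1.66 (adjusted p = 0.00265) and the inhibitor gene TIMP1 at 0.71 (adjusted p = 0.0136) rose, while MMP2 at 0.07 and MMP14 at -0.01 did not pass.

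Of 14 measured basement membrane partners 5 rose. They were NID2 at 1.17 (adjusted p = 0.0049), LAMB2 at 0.79 (adjusted p = 0.0373), NID1 at 0.68 (adjusted p = 0.0293), SPARC at 0.68 (adjusted p = 0.0174) and PXDN, which cross-links type IV collagen, at 0.66 (adjusted p = 0.0211). The laminin chains of the early embryo, LAMA1 at -0.38, LAMB1 at -0.15 and LAMC1 at -0.21, did not pass. Shares called were 20.0%, 21.4%, 40.0%, 18.2%, 15.4% and 35.7% in the lists of modification, export, lysyl oxidases, receptors, degradation and basement membrane partners, against 30.2% of the collagens and 5.37% of all genes.

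**Figure D4:**
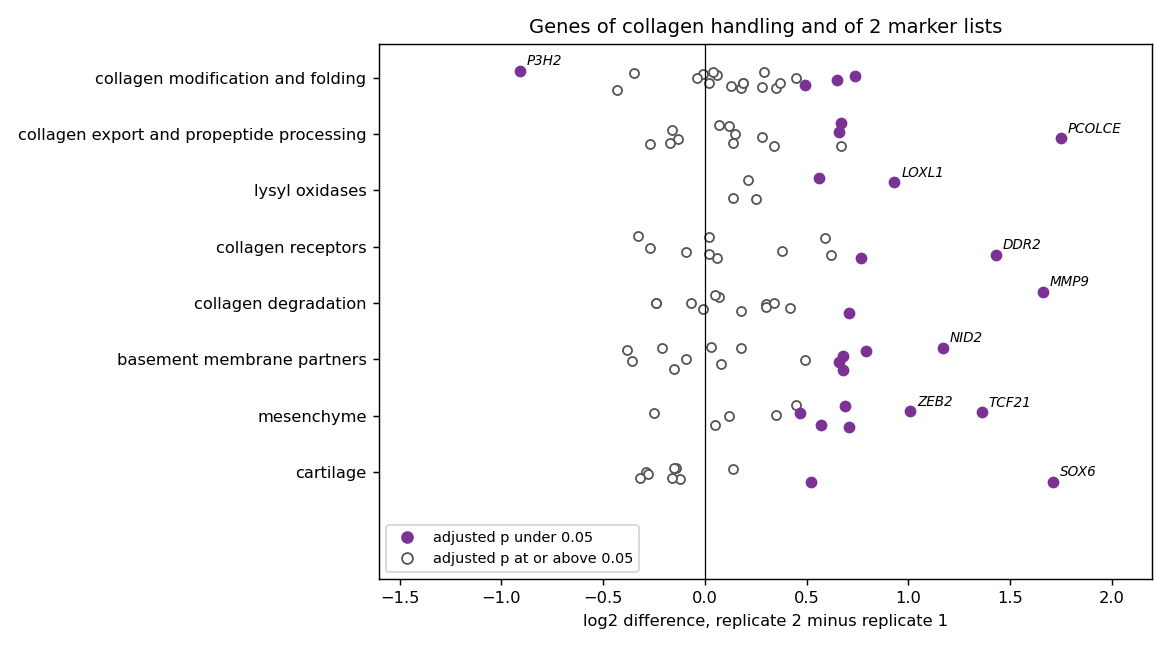
Log2 difference, replicate 2 minus replicate 1 (x axis), of each measured gene (points) in 6 lists of collagen handling and 2 marker lists (rows, points spread within a row at random); filled points had an adjusted p under 0.05 in limma. P3H2, at -0.91, is the only filled point left of 0 in these rows, and PCOLCE, SOX6, MMP9, DDR2 and TCF21 lie above 1.3.

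Markers of cell types moved with the replicate number too. For comparison with the counts below, 5.37% of all genes were called, 3.35% higher and 2.02% lower on replicate 2. Of 11 mesenchyme markers 6 rose on replicate 2 and 0 fell, with a median difference of 0.47, and the median level was 8.0 on TBBD 2 and 7.49 on DMSO 2, against 7.44 on TBBD 1 and 7.37 on DMSO 1. TCF21, a regulator of visceral mesenchyme, stood at 1.36, ZEB2 at 1.01, PRRX1 at 0.71, ZEB1 at 0.69, PDGFRB at 0.57 and VIM at 0.47, while PDGFRA at 0.45, THY1 at 0.35, SNAI2 at 0.12, TWIST1 at 0.05 and FOXF1 at -0.25 did not pass. Hepatic and visceral endoderm markers had 8 of 11 called higher, a median difference of 1.55 and median levels of 7.31 on TBBD 2 and 7.06 on DMSO 2, against 5.82 on TBBD 1 and 5.5 on DMSO 1. In that list ALB stood at 5.45 to 5.64, under the olfactory receptors' 95th percentile on every array. Endothelial markers had 5 of 10 called higher, with a median of 0.73. The 8 muscle markers had 1 called higher, ACTA2 at 1.22, and 1 lower, ACTC1 at -0.64. Pluripotency markers had 4 of 9 called lower, POU5F1, LIN28A, DNMT3B and ZFP42, and 1 higher, SOX2 at 1.29. The part of these cell types in the collagen differences was not tested, and cell makeup and replicate number cannot be told apart.

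TBBD against DMSO gave no call. By limma, 0 of the 43 collagens passed at an adjusted p under 0.05 and 0 at an unadjusted p under 0.05, against 0.0% and 0.746% of all genes. The TBBD and DMSO arrays did not overlap for 4 of the 43, COL27A1, COL20A1 and COL24A1 higher and COL4A4 lower with TBBD, against 20.9% of all genes, 10.5% higher and 10.4% lower. COL24A1 and COL4A4, which differed by 0.06 and -0.11, had mean levels not above the olfactory receptors' 95th percentile. The smallest unadjusted p among collagens was 0.205, for COL27A1. The median difference, TBBD minus DMSO, was 0.02 over the collagens and -0.003 over all genes, with 30 collagens higher and 13 lower. The 0.746% of all genes at an unadjusted p under 0.05 lies well below that nominal rate, so a lack of calls here says little. Because the spread in this fit includes the difference between the replicate numbers, intervals were widest where that difference was large. A gene that differed much between the numbers could therefore hardly be called. For COL3A1, with means of 9.50 ± 1.63 with TBBD and 9.49 ± 1.43 with DMSO (SD, n = 2 each), the difference was 0.01 and its 95% confidence interval ran from -2.50 to 2.52. For COL7A1 it ran from -0.35 to 0.36.

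Within a replicate number the treated and control arrays lay closer. TBBD 1 minus DMSO 1 ran from -0.42 to 0.41 over the collagens with a median of 0.02, and TBBD 2 minus DMSO 2 from -0.21 to 0.51 with a median of 0.07. The SD over the 43 genes was 0.16 in each pair, against 0.63 for TBBD 2 minus TBBD 1 and 0.59 for DMSO 2 minus DMSO 1. Over all genes the SDs were 0.21 and 0.19 within the numbers and 0.33 and 0.31 between them. In all, 17 collagens were higher with TBBD in both numbers, 6 were lower in both and 20 differed in sign between the numbers. Those higher in both were 39.5% of the collagens, against 21.5% of all genes and 32.2% of the olfactory receptor genes, and those lower in both were 23.0% of all genes and 14.1% of the olfactory receptor genes. The share of collagens higher in both lay above both of these, nearer to that of the olfactory receptors, and the reason was not tested. Cell type marker lists differed in these counts. Of 11 hepatic and visceral endoderm markers 8 were higher with TBBD in both numbers and 0 lower (median difference 0.18). Of 9 pluripotency markers 6 were lower in both and 0 higher (median difference -0.21). Higher and lower in both were 3 and 2 of 11 mesenchyme, 3 and 2 of 10 cartilage and 4 and 2 of 8 skin epithelium markers. For endothelium they were 3 and 0 of 10, and for muscle 1 and 1 of 8. None of these markers passed the test, and their part in the collagen values was not tested. By class, 7 of 11 fibrillar, 4 of 6 basement membrane, 3 of 10 fibril-associated and 3 of 16 other collagens were higher in both. Chains of 1 collagen share arrays and are not independent, and the counts carry no test.

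The type IV pair COL4A1 and COL4A2 was among the members with the largest same-direction differences. COL4A1 averaged 8.08 ± 0.44 with TBBD and 7.81 ± 0.20 with DMSO (SD, n = 2 each), and stood 0.10 higher with TBBD in replicate 1 and 0.44 higher in replicate 2. Of all genes, 56.3% differed by at least as much in replicate 1 and 2.91% in replicate 2. COL4A2 averaged 8.33 ± 0.40 with TBBD and 8.10 ± 0.37 with DMSO, and stood 0.21 and 0.25 higher in replicates 1 and 2, where 26.8% and 15.2% of all genes differed as much. Of the COL4A1 probesets 28 of 50 were higher with TBBD in replicate 1 and 44 of 50 in replicate 2, and of the COL4A2 probesets 30 and 36 of 45. The differences were 0.27 ± 0.24 (SE) for COL4A1, with an interval from -0.35 to 0.89, and 0.23 ± 0.27 for COL4A2, from -0.45 to 0.91. Neither passed. COL4A6, at 0.24 and 0.06, and COL4A5, at 0.14 and 0.02 in replicates 1 and 2, also lay higher with TBBD. The other type IV genes did not: COL4A4 stood at -0.05 and -0.16 and COL4A3 at -0.06 and 0.10. Of the 14 basement membrane partners, 5 were higher with TBBD in both numbers, 1 was lower in both and 8 differed in sign, and LAMA1, LAMB1 and LAMC1 were among the 8.

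In the other classes COL6A3 stood 0.41 higher with TBBD in replicate 1 and 0.18 higher in replicate 2, and COL1A1 0.30 and 0.15 higher. Their heteromer partners differed less, COL1A2 by 0.07 and 0.14, COL6A2 by 0.09 in each, and COL6A1 by -0.22 and 0.07. COL27A1, a minor fibrillar collagen, stood at 6.52 and 6.76 on TBBD 1 and TBBD 2, against 6.34 and 6.52 on DMSO 1 and DMSO 2, which was 0.18 and 0.24 higher. The largest same-direction negative differences were those of COL2A1, at -0.42 in replicate 1 and -0.08 in replicate 2, and COL12A1, at -0.21 in each. COL15A1 differed in sign, at -0.18 in replicate 1 and 0.51 in replicate 2, where 1.66% of all genes differed as much. COL3A1 did too, at -0.13 and 0.16. None of these passed the test, and the mean differences were 0.29 ± 0.78 (SE) for COL6A3, 0.22 ± 0.75 for COL1A1, 0.21 ± 0.14 for COL27A1, -0.25 ± 0.43 for COL2A1 and -0.21 ± 0.33 for COL12A1. With the replicate number as a block the SEs were 0.12, 0.12, 0.11, 0.13 and 0.11 in that order, and again none passed.

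**Figure D5:**
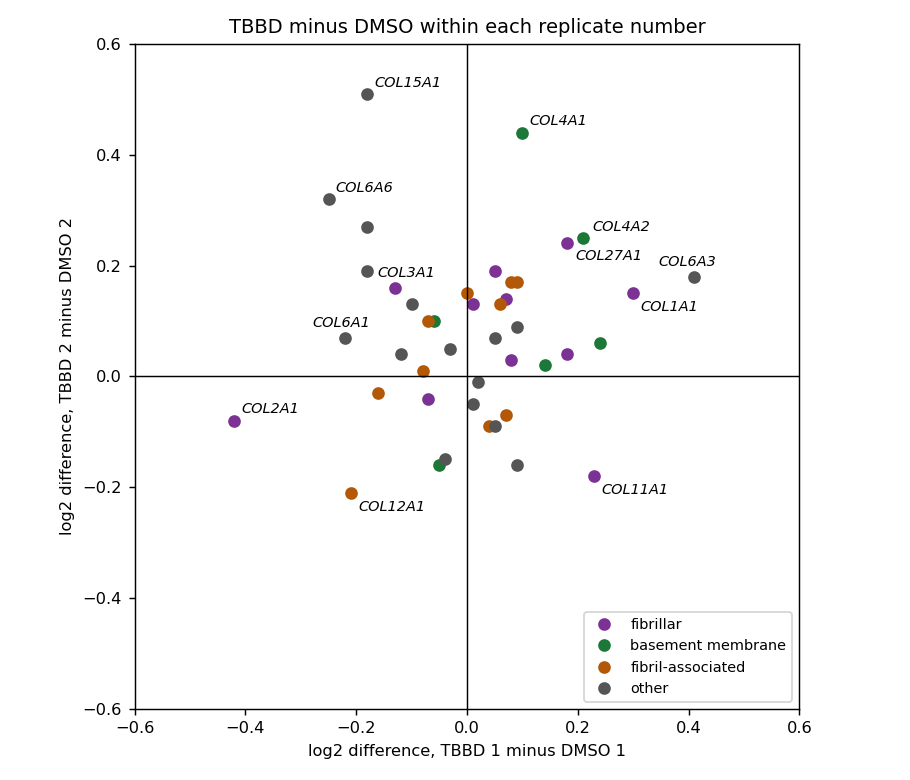
Log2 difference between TBBD and DMSO for each of the 43 collagen genes in replicate 1 (x axis, TBBD 1 minus DMSO 1) and replicate 2 (y axis, TBBD 2 minus DMSO 2), coloured by class. The 17 genes in the upper right were higher with TBBD in both numbers, the 6 in the lower left lower in both, and no gene lies beyond 0.51 on either axis.

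With 1 array left out the treatments hold the replicate numbers unequally, and 11 of the directions above turned. Without DMSO replicate 1 COL1A1 stood at -0.65, COL6A3 at -0.62 and COL4A2 at -0.032. Without TBBD replicate 2 COL1A1 stood at -0.57, COL6A3 at -0.51, COL4A2 at -0.052 and COL4A1 at -0.036. Without DMSO replicate 2 COL2A1 stood at 0.12 and COL12A1 at 0.13, and without TBBD replicate 1 they stood at 0.29 and 0.14. COL27A1, which differed by 0.21 between the replicate numbers, against 1.66 for COL1A1 and 1.73 for COL6A3, kept its sign in all 4 fits. It ran from 0.091 to 0.33. These fits mix in the replicate difference, so kept or turned signs do not rank the treatment differences. In the lists of collagen modification, export, lysyl oxidases, receptors, degradation and basement membrane partners, and in the 7 marker lists, 0 genes passed the test between TBBD and DMSO. LOX, which starts collagen cross-linking, stood at 7.06 and 7.10 on TBBD 1 and TBBD 2, against 6.18 and 6.64 on DMSO 1 and DMSO 2. Its difference of 0.67 had an unadjusted p of 0.0147 by limma and did not pass after adjustment. At an unadjusted p under 0.05 there was 1 gene each in the lysyl oxidase, mesenchyme and pluripotency lists and 0 in the others, against 0.746% of all genes.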

How the data were processed

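RNA of embryoid bodies was hybridised to 4 Affymetrix Human Gene 1.0 ST arrays. Trizol was used for extraction, per the labels' protocols. The deposited values are log2 signals that the authors made with RMA, per the submitters' processing notes, 1 per exon-level probeset. The sources used here give no RMA release or options. That the scale is log2 follows from the range of the values. The number of arrays limits the precision.

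Of 247312 probesets, 277 with a placeholder value on an array were left out, 8 of them in collagen genes. Probesets with 1 gene symbol (219181) were used, those with several (9980, of which 3 name a collagen) or none (18151) were not. Older symbols were updated through a RefSeq table. Probeset values were averaged per gene, giving 18640 genes. TBBD was compared with DMSO, and replicate 2 with replicate 1, by limma's two-sided moderated test, each with 1 term, over all genes with Benjamini-Hochberg adjustment and a threshold of 0.05. The script was tested on simulated data. Alternatives were normalization, filters on dim genes, probeset summaries, the spread model, the other factor as a block, each array left out and a threshold of 0.1.

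The members, the 13 gene lists and the tests were chosen with earlier results of these data known. Array values and tests were given for up to 5 members a class with the largest replicate difference, their heteromer partners, 7 genes always named, the members with the largest same-direction TBBD difference (up to 6) and the smallest p there, and up to 6 genes a list by replicate difference. COL11A1 and, outside the collagens, SERPINH1, P4HA1, P4HB, DDR1, MMP2, MMP14, LAMA1, LAMB1, LAMC1, ACAN, ALB and the 5 mesenchyme markers that did not pass were named outside this rule, after their values were seen. R 4.3.3, limma 3.58.1, Python 3.11.15, pandas 2.3.3 and matplotlib 3.10.9 were used.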

Additional observations from a re-analysis of the deposited data

How the results depend on the processing

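Between TBBD and DMSO, 0 collagens passed limma's adjusted threshold under every alternative run, the threshold of 0.1 included, and the median collagen difference, 0.023, ran from -0.10 to 0.14 with 1 array left out. Blocking on the replicate number, limma called 0 of 43. Each treatment has 1 array of each number, so the block cannot move a difference. The median was therefore 0.023 by construction, and only SEs and p-values could change. Over all genes those at an unadjusted p under 0.05 numbered 496 with the block and 139 without it, and 23 without it in the brightest 9320 genes. The labels do not say that the numbers pair samples, and 2 pairs are too few to decide it; deviations of same-numbered arrays correlated at 0.566 across genes. Over the 4 fits that leave out 1 array COL1A1 ran from -0.65 to 1.09, COL6A3 from -0.62 to 1.21, COL4A1 from -0.036 to 0.58, COL4A2 from -0.052 to 0.51, COL2A1 from -0.80 to 0.29 and COL12A1 from -0.56 to 0.14; these fits hold the replicate numbers unequally by construction.

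Between the replicate numbers the 13 calls became 11 with the median over probesets, 13 with treatment as a second term (replicate block), 14 with quantile normalization again and 15 at a threshold of 0.1, the added ones being COL4A2, higher, and COL9A3, lower. With 1 array left out 11 to 13 were called, and without TBBD replicate 2 COL5A2 and COL21A1 were lost. Over all genes the 1001 calls became 653 with treatment as a second term and 368 to 685 with 1 array left out. The median difference of 0.18 was 0.30 among the 33 collagens of the brightest 12426 genes and 0.69 among the 21 of the brightest 9320, where fewer members were left, and ran from 0.16 to 0.23 with 1 array left out. None of the collagens recomputed gene by gene changed sign between the replicate numbers under these alternatives; the other genes named were not recomputed. With 2 arrays a group, smaller differences may have been missed.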

Other observations

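COL26A1, another collagen gene, fell outside the 43 because the platform annotation lists it under an older symbol. Its log2 signal was 6.98 and 7.01 on TBBD 1 and TBBD 2, against 6.94 and 7.06 on DMSO 1 and DMSO 2. Its difference between replicate numbers was 0.08 ± 0.10 (SE) and between TBBD and DMSO -0.0030 ± 0.12, and neither passed limma's test (adjusted p = 0.729 and 1).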
